A study of Macaca mulatta with 8 samples.

Results

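Colony-stimulating factors are the growth factors of the myeloid lineages, and 7 of their genes and receptor genes were described here by symbol, out of 35432 Ensembl genes with a read count. The ligands are CSF1 (M-CSF), IL34, CSF2 (GM-CSF) and CSF3 (G-CSF), and the receptors are CSF1R, CSF2RB and CSF3R. All 7 had a single row, and 5 of them passed the filter on low counts that kept 12131 genes for testing, whereas IL34 and CSF3R did not. The rows were taken by symbol and not by a filter on their values. The list of symbols was chosen with earlier results of these data known. CSF2RA, the ligand-binding chain of the GM-CSF receptor, had no row under that symbol and could not be analysed here.

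The libraries came from primary rhesus macaque (Macaca mulatta) microglia, the resident macrophages of the brain, isolated from subcortical white matter of 4 adult donors. The cells were kept for 8 days in serum with M-CSF, at 10 ng/mL by the sample labels. The paper's methods give a higher concentration of M-CSF. Recombinant M-CSF is the protein product of CSF1 and contributes no reads. Each donor gave 1 library of cells with uLPS (ultrapure LPS, a TLR4 agonist, at 10 µg/mL and over 16 h) and 1 of cells that had received MRS2578, an antagonist of the UDP receptor P2RY6, at 5 µM from 1 h before the same uLPS. All 8 libraries thus share the uLPS and the M-CSF, and none shows the unexposed state. R07110 and R12016 were males of 13 and 9 years, and R02046 and R14143 were females of 19 and 6 years. DMSO is named as solvent control in the paper's methods and not in the labels of the uLPS libraries. The RNA is that of a whole culture, so fewer cells of a type and less RNA per cell cannot be told apart.

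Macrophages and microglia depend on CSF1R, a receptor tyrosine kinase, for survival and proliferation, and its known ligands are M-CSF and IL-34. IL-34 is made in the brain mainly by neurons and in the skin by keratinocytes. CSF2RB is the beta common chain that carries the signal of GM-CSF, IL-3 and IL-5, while CSF3R is the homodimeric receptor of G-CSF and is a hallmark of neutrophils and their precursors. GM-CSF and G-CSF are inducible cytokines that LPS and IL-1 evoke in macrophages, fibroblasts and endothelial cells.

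Total counts ranged from 9231109 to 32790348 per library. The labelled cell type was compared with its markers. Of 15 microglia and macrophage markers 14 had a row and 12 passed the filter, with CD14 at a mean of 6270 CPM and P2RY12 at 9.10 CPM, whereas CX3CR1 (0.392 CPM) and TMEM119 (0.0904 CPM) were close to 0. Summed markers of fibroblasts and mural cells, of which 8 of 9 passed the filter, ranged from 142 to 1270 CPM with uLPS and from 266 to 582 CPM with MRS2578. Over all libraries, those of oligodendrocytes (3 of 8 passed) summed to 224 to 407 CPM, of astrocytes (4 of 6) to 88.7 to 205 CPM and of endothelial cells (3 of 5) to 178 to 332 CPM. Those of neurons (0 of 5 passed) did not exceed 1.17 CPM, and those of lymphocytes (0 of 8 passed) did not exceed 0.759 CPM. Neutrophil markers (1 of 8 passed) were at most 9.95 CPM, nearly all of it CXCR2, with ELANE, S100A12 and MMP8 at 0 in all libraries. P2RY6 was at 72.1 ± 19.2 CPM with uLPS and at 72.8 ± 28.3 CPM with MRS2578 (SD, n = 4).

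For donor R02046 the labels and a supplementary CPM table disagree. Each of the 8 columns of that table was proportional to the counts of a single library (coefficient of variation of the ratio at most 1.42e-06, against at least 0.361 for the next library), and donor and condition were those of the label for 6 columns, whereas the 2 columns of R02046 carried the opposite conditions. For the 5 members tested, fitted results are therefore given under the labels, with the R02046 libraries exchanged, and without R02046.

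The promoter of CSF2 holds a short element known from this gene, the CSF box or CK-1 element. Its upstream sequence is shown for this element, and the choice was not made by a rule fixed in advance. The sequence is from the Mmul_10 genome, plus strand, 5′ to 3′, with the start as in RefSeq, and the capitals mark the CSF box. The stretch is chr6:129528549-129528778 and ends 21 bases before the annotated start of the gene.
CSF2: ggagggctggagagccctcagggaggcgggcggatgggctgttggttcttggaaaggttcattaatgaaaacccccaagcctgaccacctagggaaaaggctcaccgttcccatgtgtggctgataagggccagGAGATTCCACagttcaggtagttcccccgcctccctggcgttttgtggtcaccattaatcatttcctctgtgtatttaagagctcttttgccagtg

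The CSF box was searched as GAGATTCCAC with any base at the ninth position, on either strand of the 600 bases before each gene start. The matches are given for 6 of the 7 members, without CSF3, so they do not show whether a motif is particular to a member. CSF2 held 1 match, 116 bases before its annotated start, and CSF1, IL34, CSF1R, CSF2RB and CSF3R held none. Of 20780 protein-coding genes, 0.380% held a match in a stretch of this length. For the same 6 genes, the NF-kB motif (2.51% of promoters) and the AP-1 motif TGANTCA (12.8%) had no match. The NF-kB motif was searched only as a strict pattern, so a site that differs from it by 1 base was not counted. The lack of a match therefore does not show that these promoters, that of CSF2 included, are without an NF-kB site. CSF2 and CSF1R each held 1 match to the PU.1 motif AGGAAGT (11.6%) and, with CSF3R, 1 to the NFAT core TTTTCC (44.7%), and CSF3R held 1 TATAAA (24.6%). CSF2RB held 2 matches to the C/EBP motif TTGNGNAA (26.1%), and CSF1 and IL34 held no match to any of the 7 motifs. A match describes letters in this stretch and does not show that a factor binds there.

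The abundance of the members was compared per kb of exon in the RefSeq annotation, on the scale of CPM per kb. CSF1R was the most abundant, at 306 ± 40.5 CPM per kb (SD over 8 libraries), above 99.1% of 15981 genes with a length. In every library CSF1R was above each other member. CSF2 followed at 70.8 ± 68.0 and CSF2RB at 69.9 ± 16.1 CPM per kb, and CSF2 was the higher of these in 2 of 8 libraries. Without R14143, the donor with the highest CSF2 and CSF3, the means over the other 6 libraries were 38.7 ± 25.1 for CSF2, 64.7 ± 15.1 for CSF2RB and 3.83 ± 1.88 CPM per kb for CSF3. This comparison was chosen after the values were seen. The order of CSF2 and CSF2RB thus did not exceed the spread between libraries, and the RefSeq model of CSF2 spans 455 bases, of which 432 are coding, so that its level per kb may be overstated. With the same counts divided by the coding length alone, CSF2RB (133 ± 30.6) was above CSF2 (74.5 ± 71.6). These counts include reads of untranslated exon, so this measure raises genes with long untranslated parts. CSF2RB has 2694 coding bases of 5122 exon bases.

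CSF3 was at 7.94 ± 8.46 and CSF1 at 5.06 ± 2.49 CPM per kb of exon, with CSF3 the higher in 4 of 8 libraries. With the same counts divided by coding length, the order turned, at 19.5 ± 20.7 for CSF3 and 25.01 ± 12.3 for CSF1. CSF1 has 1665 coding bases of 8234 exon bases and CSF3 600 of 1470, so this turn follows from the lengths. IL34 was at 0.160 ± 0.296 and CSF3R at 0.00523 ± 0.00741 CPM per kb of exon. The ranges of CSF1 and IL34 did not overlap. The cells thus held abundant transcript of the M-CSF receptor and of the beta common chain, and hardly a read of the G-CSF receptor.

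**Figure D1:**
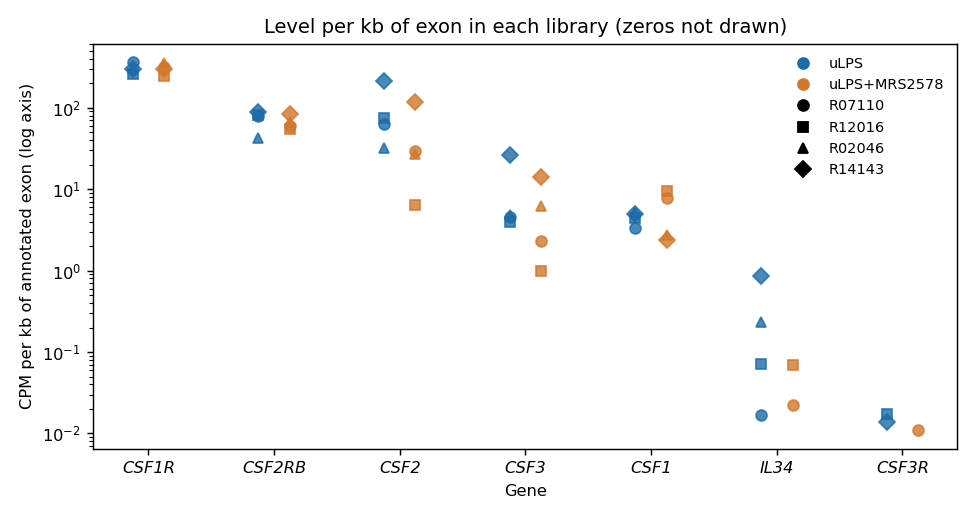
Level of each member in CPM per kb of RefSeq exon on a log axis, with 1 point per library (colour for condition, shape for donor, libraries at 0 not drawn). CSF1R lies between 247 and 360.8 CPM per kb in all libraries, and IL34 and CSF3R lie below 1.

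CSF1R (ENSMMUG00000011556; chromosome 6, 147566255 to 147600778 of Mmul_10, minus strand) encodes the receptor of M-CSF and IL-34. With uLPS it was at 1471 (R07110), 1061 (R12016), 1240 (R02046) and 1219 CPM (R14143). In the presence of MRS2578 it was at 1292, 1007, 1459 and 1232 CPM in the same order of donors. The conditions overlapped, and the differences within donors were small, from -0.19 in R07110 to 0.23 in R02046 as labelled, on the log2 scale. The log2 fold change was 0.00 (unrounded -0.0036) ± 0.13 (SE, BH-adjusted p = 0.999) by edgeR's quasi-likelihood fit with the donor as a block (BH, Benjamini-Hochberg over all genes tested). It was -0.12 ± 0.10 (SE, BH-adjusted p = 0.587) with the R02046 libraries exchanged and -0.08 ± 0.12 (SE, BH-adjusted p = 0.813) without R02046. The sign of the value under the labels turned when R07110 or R12016 was left out (0.054 and 0.025).

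CSF2RB (ENSMMUG00000012351; chromosome 10, 14629244 to 14656860, minus strand) encodes the signalling chain of the receptors for GM-CSF, IL-3 and IL-5. RefSeq places 1 gene on the opposite strand within it, LOC114670360, and whether the counting used strand is not given in the sources used here. With uLPS it was at 408 (R07110), 423 (R12016), 219 (R02046) and 452 CPM (R14143). In the presence of MRS2578 it was at 307, 284, 346 and 426 CPM in the same order. With MRS2578 it was thus lower by 24.8% in R07110, 32.8% in R12016 and 5.93% in R14143, and higher in R02046 as labelled, and the conditions overlapped. The log2 fold change was -0.11 ± 0.20 (SE, BH-adjusted p = 0.952) under the labels by edgeR's quasi-likelihood fit, and it was 0.055 when R12016 was left out. With the R02046 libraries exchanged, means were 407 ± 44.7 CPM with uLPS and 309 ± 86.2 CPM with MRS2578, a log2 fold change of -0.43 ± 0.11 (SE, BH-adjusted p = 0.119). Without R02046 it was -0.36 ± 0.13 (SE, BH-adjusted p = 0.317). With the exchange, adjusted p was 0.0165 in DESeq2's Wald test, 0.0375 in edgeR's likelihood ratio test and 0.0175 by edgeR's quasi-likelihood fit without R14143.

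CSF3R (ENSMMUG00000020434; chromosome 1, 188099188 to 188116045, plus strand) had 3 reads in all. They were 1 read in R12016 with uLPS, 1 in R14143 with uLPS and 1 in R07110 with MRS2578, and the other 5 libraries had 0. A count of 0 allows up to 0.0915 CPM in the largest library and 0.325 CPM in the smallest, counting error only. Transcript of the G-CSF receptor was therefore at the limit of detection in these cells, and a difference between conditions was not detectable at this depth (mean log2 difference -0.19, exact permutation test over donors, two-sided, p = 0.5, where 0.125 is the smallest that 4 donors allow).

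CSF2 (ENSMMUG00000016915; chromosome 6, 129528799 to 129530829, plus strand) encodes GM-CSF. With uLPS it was at 28.6 (R07110), 33.7 (R12016), 14.6 (R02046) and 97.7 CPM (R14143). In the presence of MRS2578 it was at 13.4, 2.91, 12.4 and 54.1 CPM in the same order. As labelled, CSF2 was lower with MRS2578 in all 4 donors, by 53.2%, 91.4%, 15.0% and 44.6%, while the conditions overlapped because R14143 with MRS2578 was above the other donors with uLPS. Of all genes tested, 6.49% were lower in all 4 donors under the labels. The counts behind the lowest value were 528 with uLPS and 46 with MRS2578 in R12016.

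The log2 fold change of CSF2 was -1.32 ± 0.47 (SE, BH-adjusted p = 0.878) by edgeR's quasi-likelihood fit under the labels. It was -1.20 ± 0.45 (SE, BH-adjusted p = 0.247) with the R02046 libraries exchanged and -1.63 ± 0.48 (SE, BH-adjusted p = 0.259) without R02046. The exchange turns the difference in R02046, -0.23 on the log2 scale as labelled, into a positive value of the same size. R12016 weighed most, since without it the log2 fold change under the labels was -0.76 (SE 0.19). The value was below 0 in all 11 other fits under the labels and in all 10 with the exchange, and CSF2 passed the threshold in none of them. The fit without R02046 is the same in both sets, and all these fits reuse the same libraries.

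CSF3 (ENSMMUG00000002923; chromosome 16, 51146376 to 51148524, plus strand) encodes G-CSF. With uLPS it was at 6.73 (R07110), 5.87 (R12016), 7.04 (R02046) and 38.9 CPM (R14143). In the presence of MRS2578 it was at 3.44, 1.45, 9.22 and 20.7 CPM in the same order, from 23 reads in R12016 to 370 in R14143. R14143 stood apart with uLPS, 5.53 times the next donor, and the conditions overlapped. Within donors CSF3 was lower with MRS2578 by 48.9% in R07110, 75.2% in R12016 and 46.9% in R14143, and in R02046 as labelled it was at 131% of the uLPS value.

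The log2 fold change of CSF3 was -0.82 ± 0.33 (SE, BH-adjusted p = 0.878) by edgeR's quasi-likelihood fit under the labels. With the R02046 libraries exchanged, CSF3 was lower in all 4 donors, as were 13.2% of all genes tested, with a log2 fold change of -0.98 ± 0.22 (SE, BH-adjusted p = 0.0968). Without R02046 it was -1.17 ± 0.23 (SE, BH-adjusted p = 0.160), and 19.8% of genes were lower in R07110, R12016 and R14143. With the exchange, adjusted p was 0.00491 in DESeq2's Wald test and 0.00255 in edgeR's likelihood ratio test.

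Fibroblasts are a known source of G-CSF, and the summed fibroblast and mural markers moved with CSF3 in R14143. They were at 1270 CPM in R14143 with uLPS and at 479 CPM with MRS2578, against 142 to 426 CPM in the other uLPS libraries. In R07110 and R12016 they were higher with MRS2578 (292 and 266 CPM) than with uLPS (205 and 142 CPM), whereas CSF2 and CSF3 were lower. In R02046 as labelled they were at 426 CPM with uLPS and 582 CPM with MRS2578, and CSF3 was likewise the higher with MRS2578. Without R14143 the log2 fold change of CSF3 was -0.81 (SE 0.46) under the labels and -1.01 ± 0.29 (SE, BH-adjusted p = 0.0695) with the R02046 libraries exchanged. The part of these markers in the levels of R14143 was not tested.

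CSF1 (ENSMMUG00000002680; chromosome 1, 114205564 to 114228972, minus strand) encodes M-CSF itself, the factor that was added to the medium as protein. With uLPS it was at 27.8 (R07110), 36.8 (R12016), 43.5 (R02046) and 40.4 CPM (R14143). In the presence of MRS2578 it was at 63.5, 78.9, 22.7 and 19.4 CPM in the same order. With uLPS the donors lay within a factor of 1.57, and with MRS2578 they split into R07110 and R12016 above and R02046 and R14143 below the whole uLPS range. CSF1 was 2.29-fold and 2.14-fold higher with MRS2578 in R07110 and R12016 and lower by 47.8% and 51.9% in R02046 as labelled and in R14143.

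The log2 differences of CSF1 were 1.19, 1.1, -0.93 and -1.05 in that order, so all 4 exceeded 0.9 in size. This bound was chosen after the values were seen, and 0.519% of all genes tested passed it in all donors in either direction. The signs alone, higher in R07110 and R12016 and lower in R02046 and R14143, were those of 12.9% of genes. Because the directions were opposite, the log2 fold change was 0.09 ± 0.44 (SE, BH-adjusted p = 0.986) by edgeR's quasi-likelihood fit under the labels, and it was -0.31 without R07110 and -0.25 without R12016. With the R02046 libraries exchanged, CSF1 was higher in 3 donors and lower in R14143, with means of 31.9 ± 8.09 CPM with uLPS and 51.3 ± 25.8 CPM with MRS2578 and a log2 fold change of 0.58 ± 0.35 (SE, BH-adjusted p = 0.448). It was 0.46 ± 0.45 (SE, BH-adjusted p = 0.719) without R02046. With the exchange and without R14143, the log2 fold change of CSF1 was 1.08 ± 0.10 (SE, BH-adjusted p = 0.00341), and 7.57% of all genes passed in that fit. R14143 was the only donor lower with the exchange, so leaving it out keeps only donors of the same direction. Whether the donors differ in this response was not tested.

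**Figure D2:**
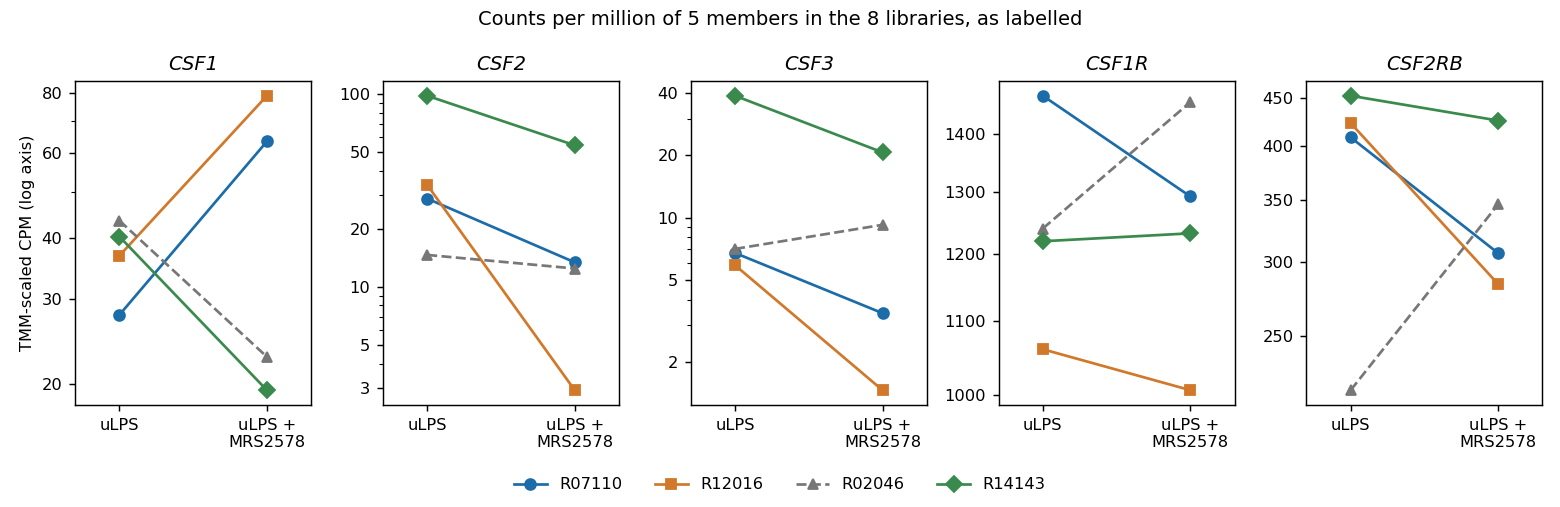
TMM-scaled CPM on log axes of CSF1, CSF2, CSF3, CSF1R and CSF2RB with uLPS and with uLPS and MRS2578, with 1 line per donor as labelled and a dashed line for R02046. CSF2 and CSF3 slope down in R07110, R12016 and R14143, the lines of CSF1 cross, and the lines of CSF1R stay between 1007 and 1471 CPM.

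**Figure D3:**
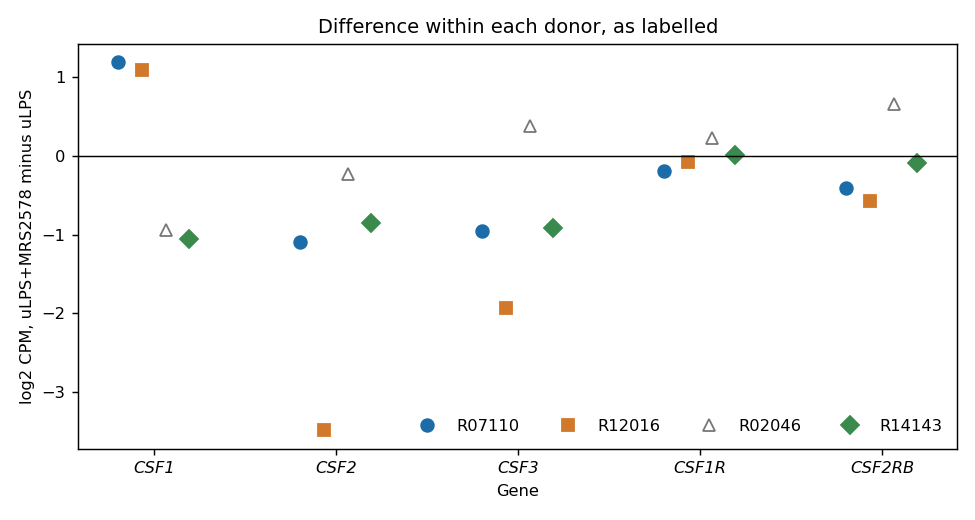
Difference in log2 CPM between uLPS+MRS2578 and uLPS for each of 5 members, with 1 symbol per donor as labelled and an open triangle for R02046. For CSF1 the symbols of R07110 and R12016 lie above 1 and the others below -0.9, and for CSF2 the values run from -3.49 in R12016 to -0.23 in R02046.

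IL34 (ENSMMUG00000020415; chromosome 20, 60840374 to 60916841, minus strand), the other CSF1R ligand, had 41 reads over the 8 libraries, of which 31 came from R14143 with uLPS. The other 7 libraries had between 0 and 4 reads. In R14143 with uLPS this is 1.54 CPM (95% exact binomial interval 1.05 to 2.19, counting error only), and with MRS2578 the same donor had 0 reads, which allows up to 0.172 CPM. Taken from the lower limit of 1.05 CPM, IL34 was at least 6.09-fold lower in that pair. R14143 with uLPS is also the library with 1270 CPM of fibroblast and mural markers, and the neuronal markers in it summed to 0.152 CPM. Its astrocyte markers summed to 205 CPM, against 203 CPM in R12016 with uLPS. Which cells gave the IL34 reads was not tested. R07110 and R12016 had the same 1 and 2 reads in both conditions. Over the 4 donors as labelled the mean log2 difference was -1.55 (exact permutation test, two-sided, p = 0.375, where 0.125 is the smallest possible). It was -0.39 with the R02046 libraries exchanged, -0.74 without R14143 and -2.91 with a prior count of 0.25 in place of 2, so its size rests on few reads.

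Across the 5 members tested, 0 had a BH-adjusted p under 0.05 under the labels, as had 0 of 12131 genes (0%), and 2 members, CSF2 and CSF3, had an unadjusted p under 0.05, against 5.14% of all genes in either direction and 2.44% with a lower value. With the R02046 libraries exchanged 0 members passed, against 0.618% of genes, and 3 members (CSF2, CSF3 and CSF2RB) had an unadjusted p under 0.05, against 16.4% of genes in either direction and 9.59% with a lower value. Without R02046 the same 3 members were under 0.05, against 13.6% of genes, and 0 passed after adjustment, as did 0 of 12295 genes. No member was higher in all 4 donors, with 6.43% of genes as labelled and 10.6% with the exchange, and none was higher in R07110, R12016 and R14143 together, with 17% of genes. DESeq2's Wald test called 0 members under the labels (0.00824% of genes), as did edgeR's likelihood ratio test (0.0412%). With the exchange each called CSF3 and CSF2RB, while they called 4.81% and 5.08% of all genes, and edgeR's quasi-likelihood fit with the exchange and without R14143 called CSF1 and CSF2RB and 7.57% of genes. The median log2 fold change over all genes was -0.0097 under the labels and 0.0012 with the exchange.

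**Figure D4:**
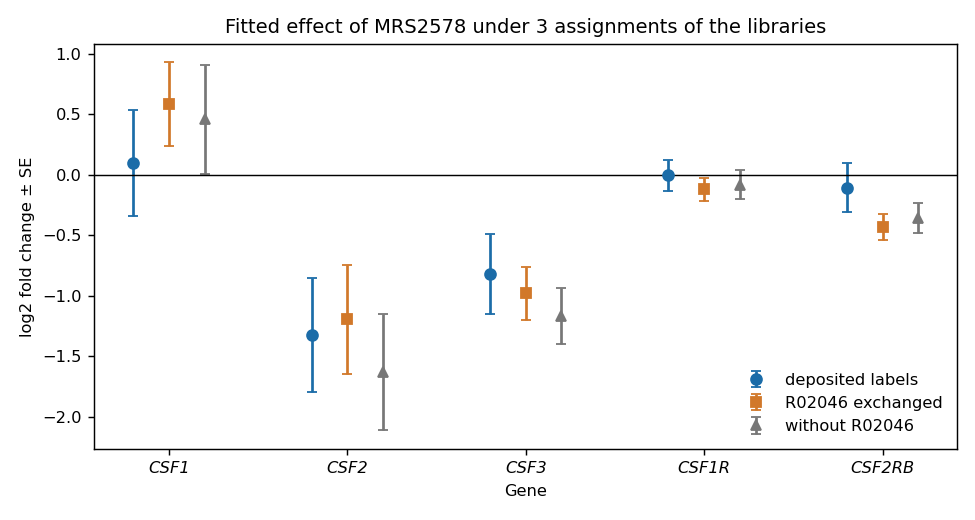
Log2 fold change (uLPS+MRS2578 against uLPS) of 5 members in edgeR's quasi-likelihood fit with the donor as a block, with bars of ± 1 SE, for the deposited labels, the R02046 libraries exchanged and the fit without R02046. CSF2 and CSF3 lie below 0 in each fit, CSF1R lies within 0.13 of 0, and CSF1 moves from 0.09 to 0.58 with the exchange.

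The inducible ligands had the widest spread between donors of the 5 members tested. The SD of the donor means, on the log2 CPM scale, was 1.39 for CSF3 and 1.26 for CSF2, with R14143 the highest for each, and it was 0.42 for CSF1, 0.28 for CSF2RB and 0.19 for CSF1R. The profiles of the members over the 8 libraries were compared with those of all other tested genes by the root mean square distance of centred log2 CPM. Nearest to CSF2 were IL1A (0.619), CSF3 (0.632) and DYRK4 (0.634). Nearest to CSF3 were ADGRA2, IL36G and SMOC1 (0.489 to 0.497). The profile of CSF1 was closest to EVA1B (0.173), CAVIN3 (0.193) and PPP1R15A (0.242), that of CSF2RB to PARP11, SKIL and PIAS3 (0.0684 to 0.0884) and that of CSF1R to SPRYD3, HK1 and EIF4G2 (0.0718 to 0.0737). These distances describe 8 libraries of 4 donors.

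Signalling through the GM-CSF and G-CSF receptors runs over JAK kinases and STAT5 and STAT3, which induce their own inhibitors, among them CISH and SOCS proteins. Of 14 genes of this route 13 were tested, and none had a BH-adjusted p under 0.05 under either assignment. Their median log2 fold change was -0.02 under the labels and -0.11 with the exchange, with 8 and 9 of 13 below 0. MCL1 (592 ± 120 CPM), a survival factor, JAK1 (279 ± 36.9 CPM) and BCL2L1 (226 ± 29.7 CPM) were the most abundant. The STAT5 target CISH, chosen after its values were seen, averaged 34.2 ± 16.4 CPM with uLPS against 23.2 ± 13.4 CPM with MRS2578, with log2 differences of -1.08 (R07110), -2.68 (R12016), 0.76 (R02046 as labelled) and -0.35 (R14143). Its log2 fold change by edgeR's quasi-likelihood fit was -0.78 ± 0.49 (SE, BH-adjusted p = 0.878) and with the exchange -1.11 ± 0.31 (SE, BH-adjusted p = 0.144). SOCS2, chosen in the same way, averaged 6.12 ± 1.01 against 4.00 ± 3.01 CPM, with a log2 fold change of -0.83 ± 0.30 (SE, BH-adjusted p = 0.878) and with the exchange of -0.93 ± 0.24 (SE, BH-adjusted p = 0.126). In R02046 as labelled SOCS2 was above 0 (0.18). SOCS3, the most abundant inhibitor of this list (189 ± 55.4 CPM), was at -0.04 ± 0.11 (SE, BH-adjusted p = 0.972) by the same fit and at -0.15 with the exchange. SOCS1 (1.05 ± 0.548 CPM) was at -0.22 ± 0.45 (SE, BH-adjusted p = 0.957) and at -0.71 with the exchange.

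The route downstream of CSF1R was represented by 22 genes for adaptors, kinases, phosphatases and the proteases ADAM10 and ADAM17, the latter of which sheds CSF1R from the cell surface. All 22 were tested and none had a BH-adjusted p under 0.05 under either assignment. The median log2 fold change was 0.02 under the labels, with 9 below and 13 above 0, and -0.11 with the exchange, with 16 below and 6 above 0. The Src family kinase LYN (1037 ± 138 CPM), the adaptor GRB2 (503 ± 58.1 CPM) and ADAM17 (379 ± 44.2 CPM) were the most abundant. With the exchange, 4 of the 22 had an unadjusted p under 0.05 by edgeR's quasi-likelihood fit. Over all genes tested this share was 16.4%, and 9.59% with a lower value. Among the 4 were the kinases LYN (log2 fold change -0.31 ± 0.10, SE, BH-adjusted p = 0.180), SRC and SYK, each with a value below 0.

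Other growth factors and receptors of these families were mostly below the filter. Of 13 genes 11 had a row, with CSF2RA and IL3RA absent by symbol, and 3 passed. These were SDC1, a proteoglycan that binds IL-34 (12.2 ± 6.87 CPM), KITLG, the ligand of KIT (9.03 ± 2.82 CPM), and EPOR, the erythropoietin receptor (1.27 ± 0.708 CPM). IL3, IL5, IL5RA, KIT, FLT3, FLT3LG and PTPRZ1 were among those that did not pass. The log2 fold changes of all 3 were above 0 under both assignments, at 0.68, 0.45 and 0.54 under the labels, and none had a BH-adjusted p under 0.05 (at least 0.878 under the labels and 0.172 with the exchange). Within donors as labelled, SDC1 (2.91 in R12016, -1.27 in R02046) and EPOR (1.76 in R12016, -0.54 in R14143) went in both directions. KITLG was above 0 in every donor as labelled, as were 6.43% of all genes tested.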

How the data were processed

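RNA of 8 cultures was measured by RNA-seq. The authors deposited whole-number counts of reads per Ensembl gene, without normalization, after alignment to Mmul_10 and counting of unique reads within exons. For trimming and alignment the paper's methods name fastp and STAR, whereas the submitters' processing notes name Trimmomatic and TopHat2. Both name HTSeq. The annotation release and strand setting are not given in the sources used here, and reads that map to several places are not counted. Genes without a symbol held 5.97% to 7.66% of the counts.

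The counts were fitted with edgeR 4.0.16 under R 4.3.3, and DESeq2 1.42.0 served as an alternative. filterByExpr (minimum count 10, on the conditions) selected the genes, TMM scaled them, and edgeR's quasi-likelihood F-test compared the conditions with donor as blocking factor. Benjamini-Hochberg (BH) values over all genes tested were read at 0.05. SE is the one implied by the F statistic. For log2 CPM a prior count of 2 was used. The libraries of a donor come from the same animal, and the pairing check, a correlation over genes of their deviations from each condition's mean, gave 0.602 (R07110), 0.552 (R12016), 0.458 (R02046) and 0.562 (R14143). Each condition holds 4 donors. No libraries were duplicates (chi-square per degree of freedom at least 20.6 between any 2). The scripts were tested on simulated counts. Positions, exon lengths and sequences are from RefSeq's annotation of Mmul_10 and its genome, and all 7 members matched by symbol. Counts of 0 allow up to 3 reads.

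The members and lists were chosen with earlier results of these data known. The genes named are the members, P2RY6, the 3 most abundant genes of each list, genes of a list with an adjusted p under 0.05, the 3 nearest profiles of each tested member and the most abundant cell type markers. Some items that this rule names, and the motif matches of CSF3, are not reported here. CISH, SOCS2 and a few others named for their values were chosen after these were seen, and SOCS1 and SOCS3 are given beside them. Conditions were taken from the labels. The alternatives were DESeq2's size factors and Wald test, edgeR's likelihood ratio test, other filters, no donor block, each donor left out, exchanged R02046 libraries, unscaled CPM, and another prior count. The earlier quasi-likelihood estimation was added after the data were examined.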

Additional observations from a re-analysis of the deposited data

Results flagged for a closer look

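Among 21 groups of 4 donors (CPM with uLPS, CPM with MRS2578 and the difference within donors, for each of the 7 genes), a donor far from the other 3 was found in 2, by the gap to the nearest donor as a share of the whole range (Dixon's test). For independent groups of normally distributed values, chance gives about 1 such group in 20. These groups are not independent, since the differences come from the CPM values of the same gene, and some hold counts near 0. CSF3 with uLPS was at 38.9 CPM in R14143, while the other 3 donors lay between 5.87 and 7.04 CPM, and the gap was 0.965 of the range. CSF3R with MRS2578 was at 0.0404 CPM in R07110, which is 1 read, and at 0 in the other donors. With a single donor above 0, the gap is the whole range whatever the count, so this flag carries no weight.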

How the results depend on the processing

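Under the labels, 0 genes were called by edgeR's quasi-likelihood fit, 1 by DESeq2's Wald test, 5 by edgeR's likelihood ratio test and 75 with the R02046 libraries exchanged, and no alternative called a member except through that exchange. Leaving out 1 donor moved the log2 fold change of CSF1 from -0.31 (without R07110, -0.25 without R12016) to 0.48, of CSF1R from -0.08 to 0.054 (without R07110, 0.025 without R12016), of CSF2RB from -0.36 to 0.055 (without R12016), of CSF2 from -1.63 to -0.76 and of CSF3 from -1.17 to -0.56. With at least 10 counts in every library CSF1R was at 0.0018. Without the replicate block the values were 0.32 for CSF1, -1.08 for CSF2, -0.77 for CSF3 and -0.14 for CSF2RB. With the exchange, the 75 genes became 583 by the Wald test, 616 by the likelihood ratio test, 39 by the earlier quasi-likelihood estimation, which was chosen after seeing the data, 0 without the replicate block and 0 to 918 without 1 donor (0 without R07110 or R02046, 5 without R12016, 918 without R14143). Members called were 2 by the Wald test (CSF3 at -1.03, CSF2RB at -0.44), 2 by the likelihood ratio test (-1.02 and -0.43) and 0 to 2 without 1 donor, the 2 being CSF1 (1.08) and CSF2RB (-0.55) without R14143. The leave-one-out range with the exchange was 0.35 to 1.08 for CSF1 and -0.55 to -0.36 for CSF2RB, where the fit without R02046 is the same as under the labels. The cause of these shifts was not tested. Depth limits IL34 and CSF3R, which did not pass the filter.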

Other observations

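Transcription factors that act on the CSF1R gene or on the myeloid lineage were fixed as a list of 12 genes, of which 11 were tested and CEBPA was below the filter. None had a BH-adjusted p under 0.05 by edgeR's quasi-likelihood fit under either assignment of R02046. The median log2 fold change was -0.19 under the labels, with 8 of 11 below 0, and -0.29 with the R02046 libraries exchanged, with 7 of 11 below 0, against -0.0097 and 0.0012 over all genes tested. SPI1, which encodes the lineage factor PU.1, was the most abundant at 472 ± 60.3 CPM, followed by ETS2 (360.3 ± 61.9 CPM). SPI1 averaged 511 ± 62.5 CPM with uLPS against 433 ± 23.3 CPM with MRS2578, a log2 fold change of -0.23 ± 0.12 (SE, BH-adjusted p = 0.878) under the labels and -0.29 ± 0.09 (SE, BH-adjusted p = 0.178) with the exchange. CEBPD, chosen after its values were seen, was below 0 in all 4 donors as labelled, from -0.08 in R07110 to -1.37 in R14143, as were 6.49% of all genes tested, with a log2 fold change of -0.72 ± 0.21 (SE, BH-adjusted p = 0.878). With the exchange CEBPD was above 0 in R02046 and its log2 fold change was -0.42 ± 0.29 (SE, BH-adjusted p = 0.513).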
